A study of Mus musculus with 6 samples.

Results

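The genes described here are 9 genes of caveolae and of the control of transcytosis in endothelial cells (ECs): *Mfsd2a*, *Plvap*, *Cav1*, *Cav2*, *Cavin1*, *Cavin2*, *Cavin3*, *Ehd2* and *Pacsin2*. They were chosen by name, with earlier results of these data known, and each matched 1 of the 56748 genes in the deposited count table. A filter on low counts kept 13107 genes for testing, among them 8 of the 9. *Plvap* did not pass it and is given by its counts only.

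The counts come from RNA-Seq of ECs sorted from the spinal cords of postnatal day 16 (P16) mice on a C57BL/6 background, males and females mixed. The 3 control mice were *Tardbpflox* without Cre. The 3 *TDP-43iΔEC* mice were *Cdh5(PAC)-CreERT2;Tardbpflox*, in which a tamoxifen-activated Cre driven by the promoter of *Cdh5*, an EC junction gene, removes exon 3 of *Tardbp*, the gene of the RNA-binding protein TDP-43. Both groups received tamoxifen (1 mg/mL) from P5 to P7, so they share the drug and the floxed allele but not Cre itself, and an effect of Cre alone cannot be told apart from that of the deletion. Each mouse gave 1 library, made with SMARTseq2, a protocol that amplifies cDNA from very small amounts of RNA.

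Caveolae are small flask-shaped pits of the plasma membrane that bud as vesicles and can carry cargo across an EC. They are abundant in ECs of many peripheral organs and are kept scarce in the ECs of the blood-brain and blood-spinal cord barriers. Caveolins insert into the membrane and form the coat with the cavin proteins, EHD2 and pacsin 2 act at the neck and on membrane curvature, PLVAP forms diaphragms across caveolae and fenestrae, and MFSD2A, a transporter of lysophospholipids, restrains caveola formation in barrier ECs.

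Total counts were 25704871 to 47270654 per library, the 2 lowest being *TDP-43iΔEC* mice 2 and 3, and 3 counts corresponded to 0.0635 to 0.117 CPM (counts scaled to a common library total). The summed CPM of 6 EC markers was 9122.4 to 12903.5 in control and 9181.8 to 11588.8 in *TDP-43iΔEC* libraries, with 0 of the 6 at 0 in all libraries, so the labelled cell type was present in both groups. Of the 6, *Flt1* (log2 fold change -0.69, limma adjusted p = 0.0635) and *Kdr* (-0.26, limma adjusted p = 0.575) were lower without overlap. The targeted gene *Tardbp*, counted over the whole gene and not over the deleted exon, had normalized counts (counts divided by the size factor of each library) of 1972.3, 2279.2 and 2069.9 in control mice 1, 2 and 3, against 980.2, 599.6 and 432.5 in *TDP-43iΔEC* mice 1, 2 and 3. Its groups did not overlap, and the log2 fold change was -1.62 (SE 0.41, limma Benjamini-Hochberg adjusted p = 0.287, DESeq2 adjusted p = 0.0221). Some of its exon sequence, 33.1%, is also exon of *Masp2* on the opposite strand. Other cell types left RNA in the libraries too. Summed markers were lower without overlap in *TDP-43iΔEC* mice for erythroid cells (5 markers, 2197.2 to 2909.3 against 6336.0 to 9759.0 CPM) and astrocytes (5 markers, 138.6 to 193.1 against 211.3 to 249.4 CPM). The astrocyte sum was nearly all *Gja1*, and the other 4 markers summed to 0 to 27.7 against 5.25 to 20.7 CPM and overlapped. *Gja1* had a control mean of 8260 normalized counts, against 360 for *Gfap* and 51.7 for *Aqp4*, and which cells its counts came from was not tested. The sums were higher without overlap for fibroblasts (6 markers, 62.7 to 109.1 against 50.5 to 61.2 CPM), through *Col3a1*: the other 5 markers summed to 12.8 to 43.9 against 35.4 to 40.8 CPM and overlapped, and only 2 of the 6 had a higher mean in *TDP-43iΔEC* mice. For mural cells (9 markers) they overlapped, at 430.3 to 1081.7 against 507.1 to 896.7 CPM. For oligodendrocytes (5 markers) *TDP-43iΔEC* mice 2 and 3, at 59.4 and 15.7 CPM, were below the controls (288.2 to 545.6 CPM), and mouse 1, at 497.5 CPM, was within their range. Venous EC markers (5) overlapped as a sum, at 735.9 to 1105.6 against 709.0 to 1207.1 CPM. *Slc38a5*, which made up most of the sum, overlapped with a lower mean in *TDP-43iΔEC* mice (log2 fold change -0.60, limma adjusted p = 0.511). The other 4 were higher as a sum without overlap (150.3 to 199.6 against 64.3 to 71.0 CPM). Of these 4, *Nr2f2* overlapped (log2 fold change -0.01), and *Vcam1* (2.42), *Ackr1* (4.93) and *Ephb4* (0.36) were higher without overlap.

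In the control ECs the 9 genes spanned more than 3 orders of magnitude in level per length of exon. On the scale of normalized counts per kb of exon, *Mfsd2a* stood first at 19430 ± 3951 (SD, n = 3 mice), above 99.6% of the tested genes. *Cav1* followed at 5489 ± 353 and *Cavin1* at 1420 ± 273. *Cav2* stood at 1079 ± 16.3, *Cavin3* at 807 ± 135, *Cavin2* at 764 ± 28.6, *Ehd2* at 354 ± 25.3 and *Pacsin2* at 201 ± 19.6. *Plvap* was last, at 0 to 14.2, with a mean above only 4.91% of the tested genes. Of the neighbours in this order, *Cavin3* (651.7 to 888.2) and *Cavin2* (737.3 to 794.3) overlapped between mice, and the others did not.

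In the *TDP-43iΔEC* ECs the top and the bottom of the order were the same and the middle was not. *Mfsd2a* was at 10743 ± 1161 normalized counts per kb of exon and *Cav1* at 5236 ± 955. *Cavin3* came next at 1231 ± 356, ahead of *Cavin1* at 1168 ± 289 and *Cav2* at 1066 ± 269, and these 3 overlapped between mice. *Ehd2*, at 673 ± 196 (447.7 to 794.3), overlapped with *Cavin2* (716.0 to 776.8), which it did not do in control mice. *Pacsin2* was at 276 ± 98.9 and *Plvap* again last.

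**Figure D1:**
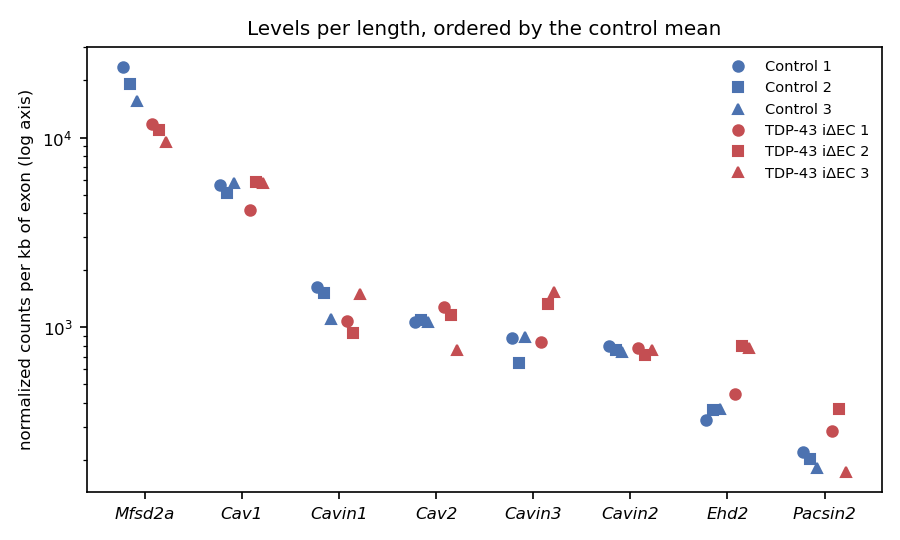
Level of each of the 8 tested genes per mouse, as normalized counts per kb of exon on a log axis, with genes in the order of their control means. Blue points are control mice and red points are *TDP-43iΔEC* mice (circle, square and triangle are mice 1, 2 and 3). *Mfsd2a* is the highest gene in both groups. *Plvap*, which was lower than these genes and had libraries at 0, is not drawn.

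For the comparison of *TDP-43iΔEC* with control mice, 0 of the 8 tested genes passed an adjusted p under 0.05 in limma, where 0.137% of all tested genes did (18 of 13107). By unadjusted p under 0.05, 1 was lower (*Mfsd2a*) and 1 higher (*Ehd2*), against a background of 5.0% of tested genes lower and 4.26% higher. These same 2 genes were the ones whose groups of mice did not overlap, which held for 7.11% of all tested genes in the lower and 7.92% in the higher direction. In edgeR's quasi-likelihood test 0 of the 8 passed after adjustment and 2 did before it, beside 0 and 6.47% of all 13107 tested genes. In DESeq2's Wald test 1 passed, *Mfsd2a*, among the 1.10% of genes that were lower at that threshold, and 0 passed among the 0.813% that were higher. The median log2 fold change of the 8 genes was -0.05, beside -0.01 (n = 13107) for all tested genes.

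*Mfsd2a* (ENSMUSG00000028655.12, GRCm39 chr4:122840643-122855244, minus strand) was the gene with the smallest p of the 9. Its normalized counts were 62692.7, 51393.0 and 41604.8 in control mice 1, 2 and 3, against 31527.9, 29175.2 and 25382.8 in *TDP-43iΔEC* mice 1, 2 and 3. Every *TDP-43iΔEC* mouse was below every control mouse, and the spread was wider among the controls. Control mice averaged 51897 ± 10553 and *TDP-43iΔEC* mice 28695 ± 3100 (SD, n = 3). The fold change was 0.551 (95% interval 0.419 to 0.726), a log2 fold change of -0.86 (SE 0.17). The unadjusted p was 0.00088 and ranked 59th of all tested genes, and the adjusted p was 0.196 (limma, Benjamini-Hochberg). DESeq2 gave an adjusted p of 0.00121 and edgeR one of 0.364. Limma with the replicate number as a block gave 0.0387, so the call depends on the test and on the block. An exact permutation test (two-sided) on the 6 mice gave p = 0.1, the smallest value that 3 against 3 allows. In these bulk samples fewer cells of a type and less RNA per cell cannot be told apart, and the part of the erythroid RNA (5 of 5 markers) and of *Gja1* and *Flt1*, all lower without overlap, in this difference was not tested. Conjugated antibodies to CD31 (an EC marker), CD45 and erythroid cells (TER-119) are among the study's reagents. The paper states that dead cells were excluded and which controls set the gates. Which of these markers were gated is not given in the sources used here.

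**Figure D2:**
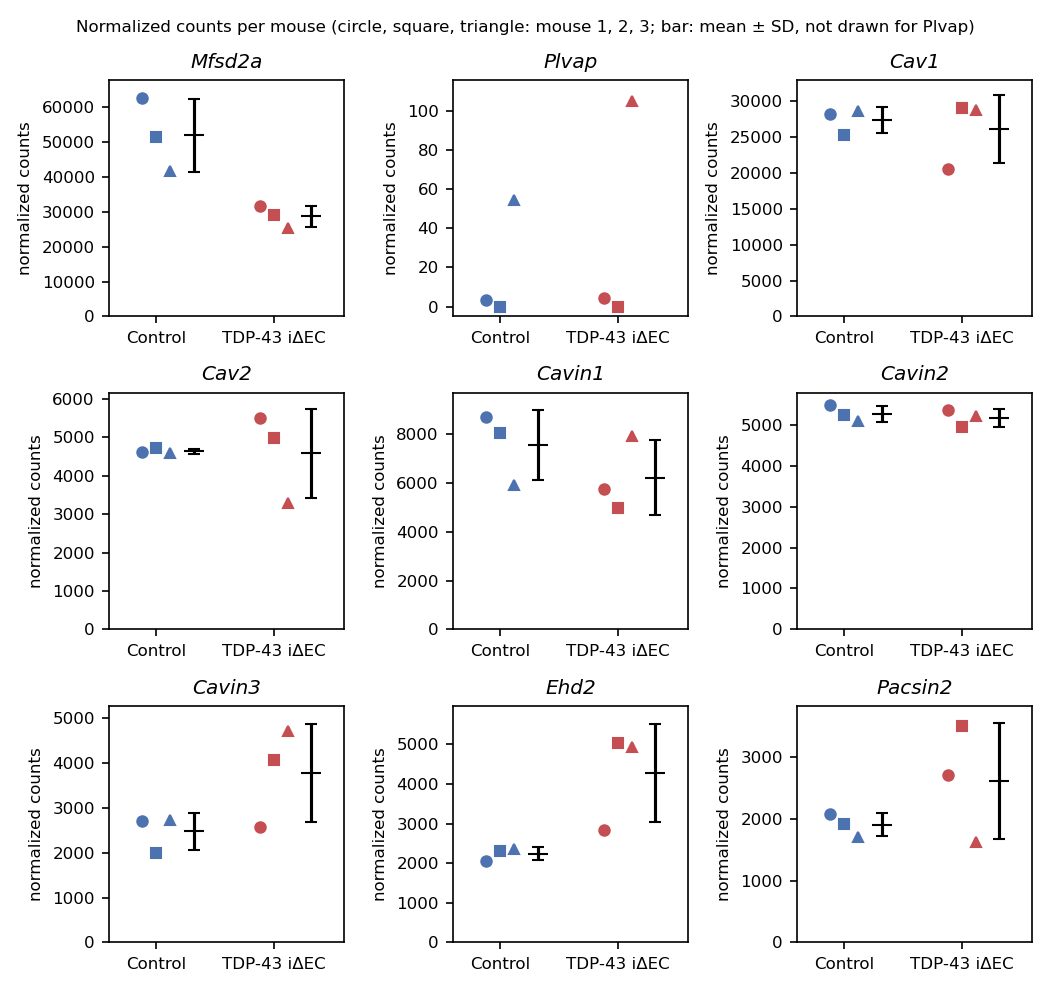
Normalized counts of each of the 9 genes per mouse, on a linear axis that differs between panels. Points are mice, and the bar beside each group is the mean ± SD (n = 3), not drawn for *Plvap*. The *Mfsd2a* groups do not overlap (41604.8 is the lowest control and 31527.9 the highest *TDP-43iΔEC* value), those of *Ehd2* do not overlap in the other direction, and those of the other 7 genes do.

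The caveolins, which form the caveolar coat, differed by less than the spread between mice. *Cav1* (ENSMUSG00000007655.17, chr6:17306140-17341451, plus strand), the caveolin that caveolae require, had normalized counts of 28209.5, 25382.7 and 28621.0 in the controls, against 20640.9, 29046.5 and 28748.0 in *TDP-43iΔEC* mice 1, 2 and 3. The groups overlapped, with *TDP-43iΔEC* mouse 1 the lowest of the 6 and the other two the highest. The log2 fold change was -0.15 (95% interval -0.53 to 0.22, limma adjusted p = 0.779), which allows a fold from 0.693 to 1.17. Scaling by library size only turned it to 0.04 and scaling to the EC markers to 0.10, and leaving out *TDP-43iΔEC* mouse 1 turned it to 0.035.

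*Cav2* (ENSMUSG00000000058.7, chr6:17281026-17289877, plus strand), the partner of *Cav1* in the coat and its neighbour on the chromosome, had normalized counts of 4607.4, 4714.9 and 4583.1 in the controls, against 5487.4, 4972.4 and 3280.1 in *TDP-43iΔEC* mice. The control mice were within a narrow range, and the *TDP-43iΔEC* mice lay on both sides of it, with mouse 3 the lowest. The means were 4635 ± 70.2 and 4580.0 ± 1155 (SD, n = 3). The log2 fold change was -0.04 (95% interval -0.58 to 0.50, limma adjusted p = 0.971), and it was 0.14 with library size only, 0.19 with scaling to the EC markers, 0.007 with quantile normalization and 0.15 without *TDP-43iΔEC* mouse 3.

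The 3 cavins, scaffold proteins on the cytoplasmic side of the coat, had log2 fold changes on both sides of 0, and none passed the test. *Cavin1* (ENSMUSG00000004044.10, chr11:100847559-100861713, minus strand), without which caveolae do not form, was at 8703.3, 8052.9 and 5924.1 normalized counts in the controls, while the *TDP-43iΔEC* mice had 5762.1, 4960.5 and 7932.9. Mouse 3 of each group was the one that lay within the other group's range. The log2 fold change was -0.35 (95% interval -0.89 to 0.19, limma adjusted p = 0.648), or -0.15 with library size only, -0.12 with scaling to the EC markers, and -0.51 to -0.23 with 1 mouse left out. Of its exon sequence, 16.9% is also exon of an antisense transcript, *Gm57383*.

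*Cavin2* (ENSMUSG00000045954.8, chr1:51328266-51345710, plus strand), a cavin of ECs that shapes caveolae, was relative to its level the steadiest of the 9 genes over the 6 libraries together. Among the controls alone *Cav2* was steadier (4635 ± 70.2 against 5267 ± 197 for *Cavin2*). Its normalized counts were 5473.8, 5247.4 and 5080.7 in the controls, against 5352.7, 4934.3 and 5203.1 in *TDP-43iΔEC* mice, so the groups lay within one narrow range. The log2 fold change was -0.06 (95% interval -0.48 to 0.36, limma adjusted p = 0.936), 0.13 with library size only and 0.17 with scaling to the EC markers. The interval allows a fold from 0.715 to 1.28, so these 6 mice do not show that the level was the same.

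*Cavin3* (ENSMUSG00000037060.4, chr7:105128391-105131507, minus strand), a cavin that links caveolae to signaling proteins, was counted at 2706.5, 2000.1 and 2725.8 (normalized) in the controls, against 2571.1, 4062.8 and 4701.0 in *TDP-43iΔEC* mice. *TDP-43iΔEC* mice 2 and 3 were above every control mouse, and mouse 1 was within the control range. The log2 fold change was 0.47 (95% interval -0.23 to 1.17, limma adjusted p = 0.638). It was 0.78 without *TDP-43iΔEC* mouse 1 (unadjusted p = 0.0306), 0.31 without mouse 3 and 0.31 without control mouse 2. Antisense transcripts cover 15.0% of its exon sequence, and reads of the 2 strands cannot be told apart without a stranded library.

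Of the proteins at the neck, *Ehd2* (ENSMUSG00000074364.7, chr7:15680874-15701629, minus strand) encodes an ATPase that holds caveolae at the membrane and restrains their release. Its normalized counts were 2060.5, 2311.2 and 2358.1 in the controls, against 2836.8, 5033.2 and 4933.6 in *TDP-43iΔEC* mice. Every *TDP-43iΔEC* mouse was above every control mouse, mouse 1 by the smallest margin, and the SD was wider in the *TDP-43iΔEC* group (2243 ± 160 against 4268 ± 1240). The fold change was 1.72 (95% interval 1.07 to 2.76), a log2 fold change of 0.78 (SE 0.30) with an unadjusted p of 0.0302 and an adjusted p of 0.494 (limma, Benjamini-Hochberg). DESeq2 gave an adjusted p of 0.155 and edgeR one of 0.482. The exact permutation p was 0.1, again the smallest possible. The unadjusted p was above 0.05 when any 1 mouse other than *TDP-43iΔEC* mouse 1 was left out. No other annotated gene overlaps its exons. *Col3a1*, a collagen of fibroblasts, was also higher without overlap in these mice, while the other 5 fibroblast markers overlapped (*Col3a1* log2 fold change 1.41, SE 0.37, limma adjusted p = 0.308). Of the 5 venous EC markers, *Vcam1*, *Ackr1* and *Ephb4* were higher without overlap too. *Nr2f2* (log2 fold change -0.01) and *Slc38a5* (-0.60) overlapped. Oligodendrocyte markers were lowest in the same *TDP-43iΔEC* mice 2 and 3 in which *Ehd2* was highest. The part of these in the *Ehd2* difference was not tested.

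*Pacsin2* (ENSMUSG00000016664.17, chr15:83258424-83348819, minus strand), which encodes an F-BAR protein that bends membranes and binds caveolae, was at 2087.9, 1928.1 and 1716.8 normalized counts in the controls. In *TDP-43iΔEC* mice 1, 2 and 3 it had 2709.6, 3506.1 and 1636.5. Mice 1 and 2 were above every control mouse and mouse 3 below every one. The log2 fold change was 0.39 (95% interval -0.34 to 1.12, limma adjusted p = 0.699), and it was 0.20 without *TDP-43iΔEC* mouse 2 and 0.63 without mouse 3.

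*Plvap* (ENSMUSG00000034845.7, chr8:71948674-71964506, minus strand) was at the limit of detection in 4 of the 6 libraries. Its raw counts were 4, 0 and 67 in control mice 1, 2 and 3, against 6, 0 and 74 in *TDP-43iΔEC* mice 1, 2 and 3, or 0.0908, 0 and 1.42 CPM and 0.133, 0 and 2.88 CPM. One library of each group was at 0 and one of each group carried nearly all of the counts, and the groups overlapped (exact permutation p = 0.7, two-sided). The exons of *Plvap* overlap those of *Gtpbp3* on the other strand over 21.7% of their length. A count of 0 allows up to 3 counts, or 0.0662 CPM in control mouse 2 and 0.106 CPM in *TDP-43iΔEC* mouse 2, which covers counting error only. Of 5 markers of peripheral fenestrated ECs, summed CPM overlapped (1360.2 to 2171.3 in *TDP-43iΔEC* and 1489.0 to 1753.9 in control mice). *Emcn* made up most of the sum, and its control mean of normalized counts (52581) was above that of the EC marker *Pecam1* (46653). The full sum thus mainly follows *Emcn* and does not tell fenestrated ECs apart from the others. Without *Emcn* the sums were 273.2 to 525.5 against 190.3 to 385.9 CPM and also overlapped. *Gpihbp1*, a lipoprotein lipase anchor of peripheral capillaries and the member with the smallest p, named after its values were seen, had a log2 fold change of 1.86 (SE 0.48, limma adjusted p = 0.296). Of the 4 other than *Gpihbp1*, *Emcn* (log2 fold change -0.18, limma adjusted p = 0.737), *Cd36* (-2.25, SE 3.43, limma adjusted p = 0.850) and *Igfbp3* (0.43, limma adjusted p = 0.691) overlapped between groups, as did the untested *Esm1*.

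**Figure D3:**
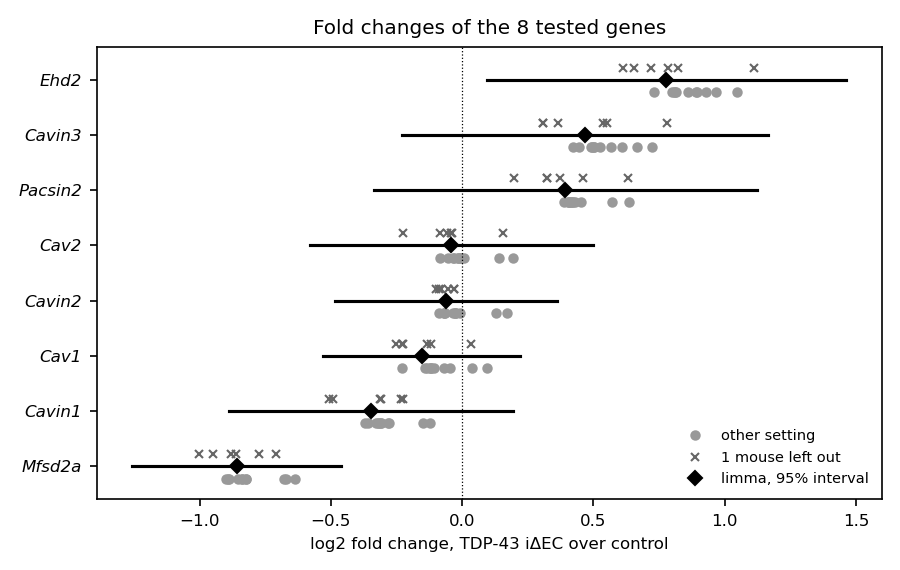
Log2 fold change (*TDP-43iΔEC* over control) of the 8 tested genes, with 95% intervals from limma. The intervals of *Mfsd2a* (-1.26 to -0.46) and *Ehd2* (0.09 to 1.46) do not include 0 before adjustment, and those of the other 6 genes do.

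The balance between the genes within a library does not depend on how libraries were scaled, so each gene's ratio of normalized counts to *Cav1* was also compared (7 ratios, exact permutation tests on log2 ratios, Benjamini-Hochberg over the 7). The *Ehd2* to *Cav1* ratio was 0.0730, 0.0911 and 0.0824 in the controls, against 0.137, 0.173 and 0.172 in *TDP-43iΔEC* mice, and the groups did not overlap. The log2 difference was 0.97 (exact p = 0.1, adjusted 0.35). The *Cavin3* to *Cav1* ratio was 0.0959, 0.0788 and 0.0952 in the controls, against 0.125, 0.140 and 0.163 in *TDP-43iΔEC* mice. It too did not overlap, with a log2 difference of 0.66 (exact p = 0.1, adjusted 0.35). The share of all tested genes whose ratio to *Cav1* did not overlap is not given here.

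*Mfsd2a* to *Cav1* ratios were 2.22, 2.02 and 1.45 in the controls, against 1.53, 1.00 and 0.883 in *TDP-43iΔEC* mice. Here the groups overlapped, because control mouse 3 was below *TDP-43iΔEC* mouse 1, and the log2 difference was -0.76 (exact p = 0.2, adjusted 0.467). The log2 differences of the ratios of *Cav2* (0.03), *Cavin2* (0.05), *Cavin1* (-0.21) and *Pacsin2* (0.47) to *Cav1* came with exact permutation p values of 0.4 to 0.9. With 3 mice against 3 none of the 7 could go below 0.1.

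**Figure D4:**
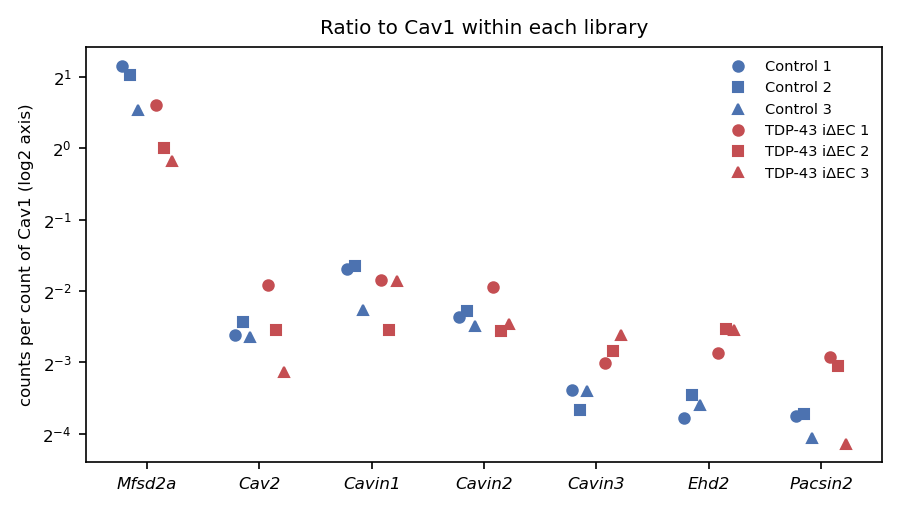
Ratio of each gene's normalized count to that of *Cav1* in the same library, on a log axis, for control (blue) and *TDP-43iΔEC* (red) mice. The *Ehd2* and *Cavin3* ratios of the groups do not overlap, and the *Mfsd2a* ratios overlap through control mouse 3 (1.45) and *TDP-43iΔEC* mouse 1 (1.53).

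TDP-43 is known to bind UG repeats in RNA, and the gene sequences were searched for uninterrupted runs of at least 10 TG units on the sense strand (GRCm39). Of the 9 genes, 6 held a run, beside 57.1% of all tested genes and 57.9% of tested genes of 10 to 40 kb. *Cav1* and *Pacsin2* held 3 each, *Cavin2* 2, and *Plvap*, *Cavin3* and *Ehd2* 1 each, while *Mfsd2a*, *Cav2* and *Cavin1* held none. *Cavin3* and *Ehd2* carried theirs in an exon, which holds for 13% of tested genes. The runs are shown in capitals with 20 bases on each side for the first of the 2 longest in an intron, both of *Cav1* and of equal length, and as the run alone for the exonic one of *Ehd2*, which lies in the annotated 3′ UTR.
Cav1 intron, chr6:17306775-17306872, plus strand: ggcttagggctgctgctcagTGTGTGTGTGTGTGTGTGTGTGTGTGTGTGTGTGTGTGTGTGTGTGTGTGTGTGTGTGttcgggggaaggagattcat
Ehd2 3′ UTR, chr7:15681446-15681471, minus strand: TGTGTGTGTGTGTGTGTGTGTGTGTG
The *Cav1* run has 29 units and the *Ehd2* run 13. Shorter or interrupted repeats were not counted, and these runs are descriptions of sequence, not binding sites.

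Other genes of caveolae, endocytosis and transcytosis were read in the same comparison, in lists chosen by name with earlier results of these data known. The paper had already reported *Tfrc* and *Apcdd1* as lower in these data, so the counts for the lists that hold them were not independent of the data. Of 13 other caveola genes 10 were tested. Of these 10, 0 had an unadjusted p under 0.05 in limma and 0 were without overlap between groups, where all tested genes had shares of 5.0% and 4.26% (lower and higher by p) and 7.11% and 7.92% (without overlap), and the median log2 fold change was -0.09. The smallest p values were those of *Ehd4*, a relative of *Ehd2* (log2 fold change 0.57, SE 0.38, limma adjusted p = 0.640), and of *Abl1*, a tyrosine kinase of caveola linkage to stress fibers. *Abl1* had 0 counts in control mouse 2, and its fitted log2 fold change of 2.98 (SE 2.13, limma adjusted p = 0.663) goes against means of 771 normalized counts in control and 633 in *TDP-43iΔEC* mice.

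Of 18 genes of clathrin-mediated endocytosis, the main other route into ECs, all were tested and 0 passed after adjustment in limma. By unadjusted p under 0.05, 1 was lower and 1 higher, shares near those of all tested genes (5.0% and 4.26%), and the median log2 fold change was -0.12. They were *Hip1*, a clathrin adaptor (log2 fold change -0.88, SE 0.24, limma adjusted p = 0.342), and *Cltc*, the clathrin heavy chain (0.47, SE 0.17, limma adjusted p = 0.458). In both, the groups did not overlap, and over the 18 genes 2 were lower and 2 higher without overlap, beside 7.11% and 7.92% of all tested genes.

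Of 10 transcytosis receptors 9 were tested, and 1 of them fell in limma. *Tfrc*, the transferrin receptor, which carries iron across barrier ECs, was at 110923.1, 86053.5 and 110737.1 normalized counts in the controls, against 44384.3, 48180.3 and 34233.2 in *TDP-43iΔEC* mice (log2 fold change -1.31, SE 0.17, limma adjusted p = 0.0270, a threshold that 0.137% of all tested genes passed). The direction was the same in 17 of 17 alternatives, chosen for this gene after its values were seen, with log2 fold changes of -1.45 to -1.07. The call was lost in 9 of them, with edgeR (adjusted p = 0.161), 2 scalings, no filter and when any 1 mouse except control mouse 2 was left out (limma adjusted p 0.0613 to 0.193). Of the 9, 4 were lower by unadjusted p under 0.05 and 3 were lower without overlap, with 0 higher by either measure, beside 5.0% and 7.11% of all tested genes that were lower by those measures. Erythroid cells also express *Tfrc*, the 5 erythroid markers were lower without overlap in the same mice (2197.2 to 2909.3 against 6336.0 to 9759.0 CPM), and their part in the *Tfrc* difference was not tested. The median log2 fold change of the 9 receptors was -1.16. The lowest values behind it (-4.39, SE 2.62, and -4.16, SE 2.49) and the highest (2.85, SE 2.21) came from genes with some libraries at 0 counts.

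Of 16 genes of the β-catenin pathway and its targets, all were tested and 0 passed after adjustment in limma, while 3 were lower by unadjusted p under 0.05 and 0 higher, beside 5.0% and 4.26% of all tested genes. The median log2 fold change was -0.33. The smallest p values were those of *Apcdd1*, a Wnt target and regulator of barrier maturation (log2 fold change -0.94, SE 0.14, limma adjusted p = 0.0523), and of *Tspan12*, a co-activator of the Norrin receptor (-0.97, SE 0.35, limma adjusted p = 0.471). The *Apcdd1* groups did not overlap.

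**Figure D5:**
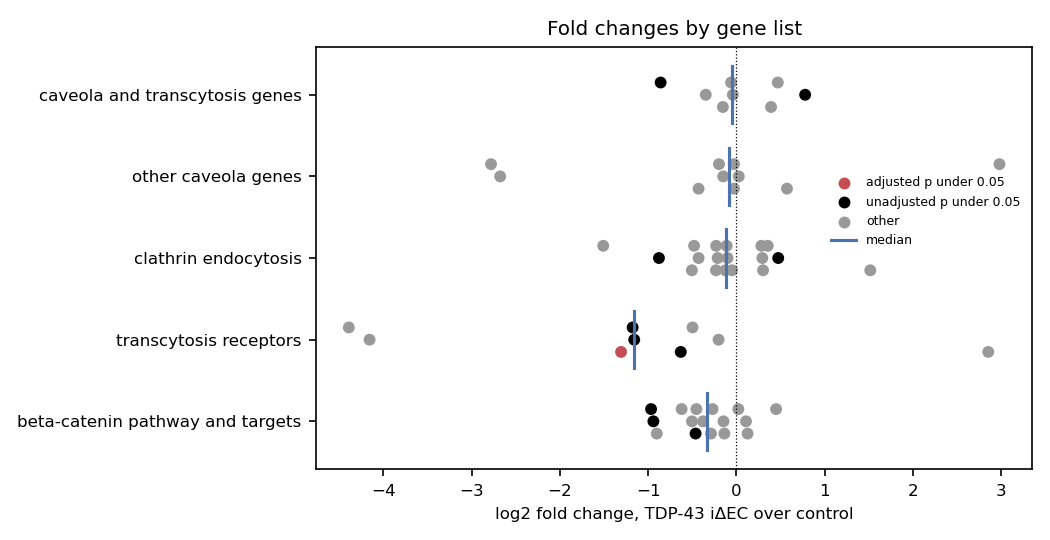
Log2 fold changes (*TDP-43iΔEC* over control) of the tested genes of 5 lists, 1 point per gene. Red points have an adjusted p under 0.05 in limma, black points an unadjusted p under 0.05, grey points neither, and the blue bar is the median of the list. The transcytosis receptors have the lowest median (-1.16), and *Tfrc* is the red point. The lowest and highest points of that list are genes with some libraries at 0 counts.

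The genes whose pattern over the 6 libraries was most like that of *Mfsd2a* were found by the root mean square difference of mean-centred log2 CPM, among 6259 tested genes of sufficient level. They were *Cxcl12*, a chemokine (0.0906 log2 units, log2 fold change -0.83), *Slc7a1*, a cationic amino acid transporter (0.108, log2 fold change -0.82), and *Fibp* (0.114, log2 fold change -0.81). The limma adjusted p of these log2 fold changes was 0.250, 0.334 and 0.532. The genes were picked for this likeness, so log2 fold changes close to that of *Mfsd2a* follow from the choice. For *Cav1* they were *Ndufs3*, a subunit of respiratory complex I (0.0763), *Stxbp3*, a syntaxin-binding protein (0.0794), and *Cfl1*, the actin-severing cofilin (0.0883), none of which passed the adjusted threshold. *Plvap* has no such list, since its counts were too few.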

How the data were processed

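The authors sorted spinal cord ECs, made SMARTseq2 libraries, aligned reads to GRCm39 with STAR 2.7.8a (GENCODE M30) and deposited estimated counts per gene from RSEM 1.3.0, not normalized, in which 0 values were not whole. PCR copies could not be removed, since the protocol names no molecular barcodes. Groups came from the sample labels, and all 6 libraries were used. Tests used limma 3.58.1 (voom, TMM, filterByExpr of edgeR 4.0.16, no covariate) in R 4.3.3, with Benjamini-Hochberg adjustment over all tested genes and a threshold of 0.05. Normalized counts are counts divided by size factors of DESeq2 1.42.0. Gene models came from GENCODE M39, which matched 98.7% of identifiers. Sequence upstream of the genes is not reported here. The procedure was also run on simulated data, with results not given here. Genes named are the 9 members, *Tardbp*, the 3 genes most like *Mfsd2a* or *Cav1*, and, for the 4 gene lists of endocytosis, transcytosis and β-catenin, those past the threshold or otherwise the 2 with the smallest p. Genes named from cell type marker lists were chosen after their values were seen. Members and lists were chosen with earlier results of these data known. Alternatives were edgeR, DESeq2, other scalings, filters, sample weights and thresholds, a replicate block, genes left out and each mouse left out, with those for *Tfrc* added after the data were seen.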

Additional observations from a re-analysis of the deposited data

How the results depend on the processing

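Of the 9 genes, 0 passed the adjusted threshold in limma and 1, *Mfsd2a*, passed with DESeq2 (adjusted p = 0.00121) and 1, again *Mfsd2a*, with the replicate number as a block (adjusted p = 0.0387). The counts gave no sign that the numbers pair the mice: same-numbered libraries had deviations from their group means correlated at -0.07, -0.13 and -0.02. Whether same-numbered mice were littermates or processed together is not known here. With the block 22 genes passed over all genes, against 18 without it. Over all genes, 18 passed in limma, 0 with edgeR (848 by unadjusted p), 247 with DESeq2, 10 with library size only, 1 with scaling to the EC markers, 40 with quantile normalization, 76 with no filter, 39 with at least 10 counts in every library and 31 at an adjusted p under 0.1. Leaving out each mouse gave 0 to 13: 3, 10 and 13 without control mice 1, 2 and 3, and 0 (960 by unadjusted p), 3 and 2 without *TDP-43iΔEC* mice 1, 2 and 3, each from fewer samples. *Tardbp* passed with DESeq2 (log2 fold change -1.65), and -2.06 to -1.41 was its range with each mouse left out. The sign turned for *Cav1* with library size only (0.037), with scaling to the EC markers (0.10) and without *TDP-43iΔEC* mouse 1 (range with mice left out -0.25 to 0.035). It turned for *Cav2* with the same scalings (0.14 and 0.19), with quantile normalization (0.007) and without *TDP-43iΔEC* mouse 3 (range -0.22 to 0.15), and for *Cavin2* with the same scalings (0.13 and 0.17). Those scalings moved the median of all genes to 0.18 and 0.22, and leaving out control mouse 2 to -0.17. Relative to the median *Mfsd2a* was at -0.85, -0.86 and -0.71 and *Ehd2* at 0.79, 0.82 and 0.95 in those 3. Relative to it *Cav1* was at -0.14 and -0.13, *Cav2* at -0.04 and -0.03 and *Cavin2* at -0.05 and -0.05 with the 2 scalings, so those turns follow the shift of all genes. The cause of the other turns was not tested. Over the 17 alternatives *Mfsd2a* ranged from -1.001 to -0.638 (adjusted p 0.00121 to 0.517) and *Ehd2* from 0.61 to 1.11 (adjusted p 0.155 to 0.632), and *Ehd2* had an unadjusted p above 0.05 without any 1 mouse except *TDP-43iΔEC* mouse 1 (up to 0.1). *Plvap* could not be tested at these counts.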
